A study of Mus musculus with 6 samples.

Results

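Livers of wild-type (WT) mice labelled as refed for 2 h were compared with livers of WT mice labelled as fasted for 24 h, with 1 array for each state. Both groups were FVB mice aged 10 weeks, the labels name no transgene and no doxycycline for either, and each array held a pool of liver RNA. The sources used here give neither the number of animals in a pool, nor their sex, nor the length of the fast before refeeding. The other 4 arrays of the series held LIXs and WT livers after 24 h of doxycycline (Dox) chow and LIXs and WT livers after 48 h of it, all taken after 6 h without food. LIXs mice carry a doxycycline-inducible transgene for Xbp1s, the active form of a transcription factor of protein folding stress. The sources used here name no promoter or cell type that drives its induction. A named gene was represented by its brightest probe and was compared when that probe was above the detection level, an intensity of 129, on at least 1 of the 2 arrays. This gave 8868 genes of the 19057 with a named probe, of which 6160 were detected on both arrays, 1363 on the refed array only and 1345 on the fasted array only. At the edge of that rule, Pcbp3 was just inside with 129.32 on its brighter array and Inf2 just outside with 129.31.

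Fasting lowers insulin and raises glucagon and glucocorticoids, and the liver then breaks down glycogen, makes glucose from lactate and amino acids, and oxidises fatty acids to ketone bodies. Igfbp1, Pck1, G6pc and Pdk4 are textbook genes of that state. Refeeding raises insulin within hours, which represses those genes and induces Srebf1 and the genes of fatty acid and sterol synthesis. The liver also secretes acute phase proteins when cytokines reach it, and immediate early and heat shock genes are transcribed within minutes to hours of many stimuli.

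With 1 array per group there is no replicate check, and no value here carries a test or an error. A gene is counted as higher or lower at a difference of at least 2-fold after background correction, that is a log2 ratio of refed over fasted of at least 1. Precision is thus limited by the number of arrays. Intensities in the text are the linear values as the authors deposited them, while folds and log2 ratios follow the background correction and are therefore larger for dim genes than the ratio of the 2 intensities. Where a gene was above the detection level on 1 array only, its fold is a lower bound that holds under this background correction only. Such a gene is counted by its measured ratio, and a second count, given as shown at 2-fold, keeps only genes detected on both arrays or with a bound of at least 2-fold. A gene that passed the detection level through 1 array had to read higher there, so counts and medians over the genes compared are descriptions, and medians over all members with a probe are set beside those of the leading lists.

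Between the 2 arrays, 1089 genes were at least 2-fold higher on the array labelled refed (12.3% of those compared) and 1053 at least 2-fold lower (11.9%). The median log2 ratio was -0.09, with 4086 genes above 0 and 4774 below it, and the 5th and 95th percentiles were -1.35 and 1.42. By comparison, the WT arrays at 48 h and at 24 h of Dox differed at least 2-fold in 304 of 8084 genes (3.76%), with 197 higher and 107 lower at 48 h. Most of the calls came from dim genes. Among 2775 genes with a mean intensity of up to 150 over the 6 arrays, 39.0% differed at least 2-fold, against 9.51% of the 1336 genes above 1000. Between the WT Dox arrays those shares were 5.54% and 1.65%. Of the higher genes 466 were detected on both arrays, and of the 623 others 255 had a bound of at least 2-fold. Of the lower genes 358 were detected on both, and of the 695 others 238 had such a bound. Shown at 2-fold were thus 721 higher genes (8.13%) and 596 lower genes (6.72%).

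**Figure D1:**
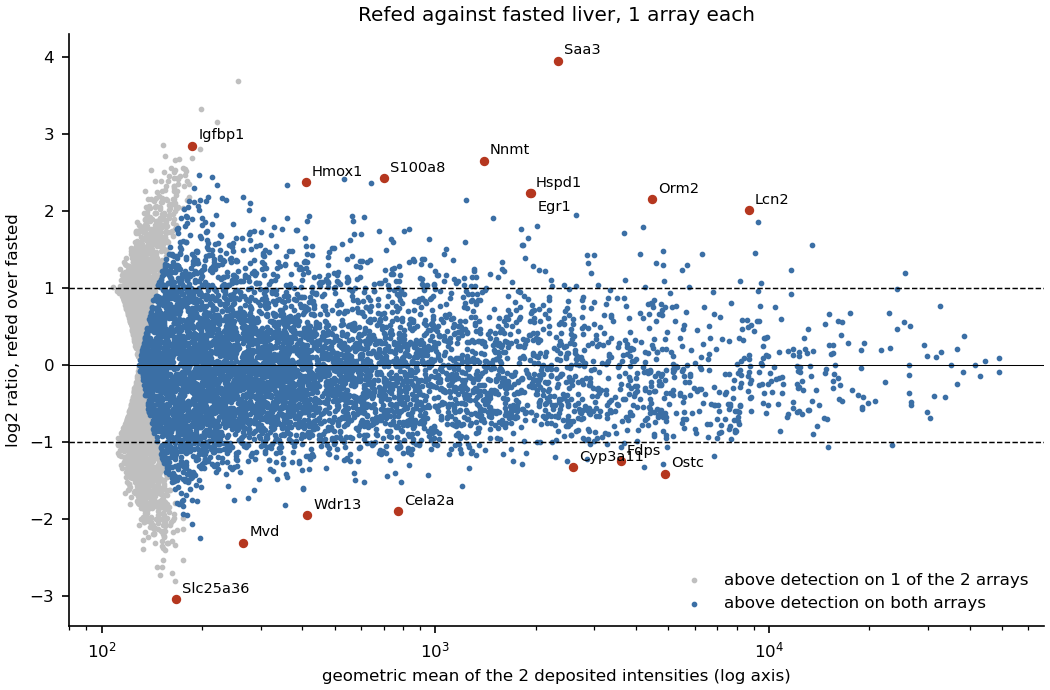
Log2 ratio of refed over fasted for each of the 8868 genes compared (vertical axis) against the geometric mean of its 2 deposited intensities (log horizontal axis), grey for genes detected on 1 array and blue for genes detected on both, with named genes in red and dashed lines at 2-fold. The spread is widest among dim genes at the left, and Saa3, Nnmt, S100a8, Orm2 and Lcn2 stand out above among brighter genes.

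The array labelled fasted stood apart from the other 5. The 5 pairs of arrays that include it differed at least 2-fold in 24.2% to 32.2% of genes, and the 10 pairs without it in 1.32% to 13.4%. Pearson's correlation over genes was 0.916 to 0.936 in the 5 pairs with it and 0.959 to 0.987 in the others, where genes are not independent replicates. A second detected probe for the same gene moved in the same direction for 54.5% of 2636 genes between refed and fasted. Among the 472 such genes past 2-fold it did so for 290 (61.4%), and with both probes above an intensity of 300 for 40 of 66. In the 10 pairs without the fasted array, the share among genes past 2-fold was between 66.7% and 95.3%. Of the 1089 higher genes, only the fasted array lay outside the range of the 4 Dox arrays for 430, only the refed array for 104, both for 547 and neither for 8. Of the 1053 lower genes those counts were 515, 61, 454 and 23. Whether RNA quality, hybridisation or the animals set the fasted array apart was not tested.

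**Figure D2:**
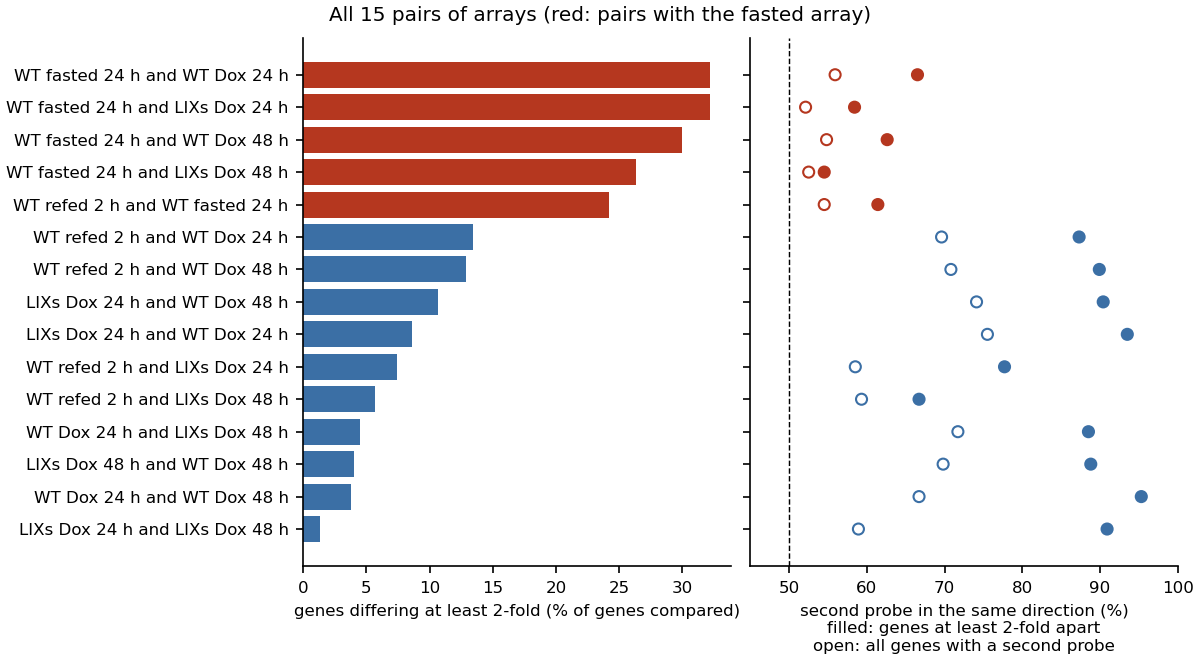
The 15 pairs of arrays, with the share of genes at least 2-fold apart (left, bars from 0, in percent of genes compared) and the share of genes whose second probe had the same direction (right, in percent, filled for genes at least 2-fold apart, open for all genes with a second probe, dashed line at 50%). The 5 red pairs contain the array labelled fasted and sit at 24.2% to 32.2%, above all 10 blue pairs.

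Because of this, each gene is also placed against all 6 arrays. The refed array was at least 2-fold above each of the other 5 for 57 genes (0.643% of those compared) and at least 2-fold below each for 7 (0.0789%). These differences do not rest on the fasted array alone. Some of these genes were detected on 1 of the 2 arrays only and had to read higher there than on the other. Among them were Tnfaip3, S100a9, Retnlg and Prtn3, detected on the refed array only, and Gmppb, on the fasted array only. The fasted array was at least 2-fold above each of the other 5 for 507 genes (5.72%) and below each for 432 (4.87%). The genes with the fasted array alone on top had a median intensity of 125 over the 6 arrays, those with it alone at the bottom 204, and those with the refed array alone on top 164. Other detected probes went in the same direction for 35 of 55, 81 of 136 and 10 of 13 genes of those sets, in that order. Genes outside the naming rule, such as Prepl, Mfsd2a, Bcl3, Cyp4a14 and Dusp6, were chosen after their values were seen.

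The labels were checked with textbook genes of feeding, and these went partly against them. Igfbp1, a liver protein that binds insulin-like growth factors and is repressed by insulin, read 293.0 on the array labelled refed and 119.5, below detection, on the one labelled fasted, a bound of at least 5.47-fold higher. Its intensities on the 4 Dox arrays, from 132 to 219, lay between the 2. Pck1, which commits oxaloacetate to glucose synthesis, read 429.5 refed and 293.2 fasted (log2 ratio 0.75), both within the 288 to 473 of the Dox arrays. The other Pck1 probe (log2 ratio 2.00) read 207.4 refed and 120.5, below detection, fasted. It passed through the refed array only and so had to read higher there. G6pc, which releases free glucose, read 2983 and 1990 on the refed and fasted arrays (0.61), against 1307 to 4358 on the Dox arrays. Pdk4, which shuts pyruvate oxidation, read 410.3 refed and 246.0 fasted (1.05). Sik1, a kinase induced through cAMP, was at least 3.96-fold higher on the refed array, and Ppargc1a, a coactivator of gluconeogenesis, at least 1.28-fold. All of these genes are known to be higher in the fasted state, and all read higher on the array labelled refed. However, Igfbp1, Sik1 and Ppargc1a were detected on the refed array only and so had to read higher there. Only Pck1, G6pc and Pdk4, with log2 ratios of 0.75, 0.61 and 1.05, were detected on both arrays. Fgf21, a hormone of the fasted liver, ran with the labels at 666.8 refed and 1225 fasted (-0.98). Cyp7a1, the rate-limiting enzyme of bile acid synthesis, read 3338 refed and 6168 fasted (-0.90). Irs2, an insulin receptor substrate repressed by insulin, read 668.2 refed and 487.7 fasted (0.54), both above the Dox arrays at 246 to 343. Srebf1, a lipogenic factor induced by insulin, read 149.1 refed and 161.8 fasted (-0.30), and Fasn and Cpt1a were not detected on either array. Every direction below is that of the labels. List counts below stand beside 12.3% of all genes compared higher and 11.9% lower, or 8.13% and 6.72% shown at 2-fold.

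The acute phase list held the highest gene of the comparison. Of its 28 genes compared, 14 were at least 2-fold higher on the array labelled refed and 2 lower, against 12.3% and 11.9% of all genes. Shown at 2-fold were 14 higher and 1 lower. The median log2 ratio was 1.06, or 0.91 over the 31 with a probe, and for 5 genes the refed array was at least 2-fold above each of the others. Saa3, an acute phase serum amyloid, read 8512 refed and 638.5 fasted, against 843 to 1575 on the Dox arrays, a log2 ratio of 3.95. Lcn2, the iron-scavenging lipocalin, read 17320 refed, 4370 fasted and 1638 to 4169 on the Dox arrays (2.01). Orm2, an orosomucoid that binds lipophilic molecules in plasma, read 9228 refed, 2156 fasted and 2031 to 3248 on Dox (2.15). For these 3 genes the refed array lay far above the Dox arrays. The fasted array lay inside their range for Orm2 and just above it for Lcn2. For Saa3 the fasted array lay below all 4, so the log2 ratio of refed over the nearest other array was 2.51. Serpina3n, a protease inhibitor, read 22955 refed, 7897 fasted and 9545 to 10730 on Dox (1.55), with the fasted array again below all 4 Dox arrays. Cd14, a receptor for bacterial lipopolysaccharide, read 626.4 refed and 263.6 fasted (1.64).

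Other acute phase genes were higher on the refed array without standing beyond every Dox array by 2-fold. Saa2 read 698.6 refed and 252.3 fasted (1.93) but 274 to 530 on Dox, and Saa1 38602 refed and 16911 fasted (1.20) but 17619 to 30682 on Dox. Saa1 and Saa2 are near-identical copies, so their probes may share signal. The second Saa1 probe read 2797 refed and 488.1 fasted, a log2 ratio of 2.78. Lbp, which carries lipopolysaccharide, had a log2 ratio of 1.94, Apcs, the serum amyloid P component, 1.95, and Itih3, a hyaluronan-binding protein, 1.86. Lbp read 975.8 refed, 323.5 fasted and 319 to 593 on Dox. Apcs read 5065 refed, 1381 fasted and 2315 to 3065 on Dox, and Itih3 17510 refed, 4895 fasted and 7874 to 11443 on Dox. In these last genes, Apcs and Itih3, the fasted array lay below all Dox arrays and the refed array above them. Cebpb, a transcription factor of the acute phase, read 7185 refed, 2927 fasted and 2824 to 4363 on Dox (1.32). Hamp, the iron hormone hepcidin, read 17796 refed and 7649 fasted (1.23) but 13538 to 19289 on Dox, so the fasted array was the low one. Hp, haptoglobin, read 41578 on both arrays, and Fga, a fibrinogen chain, 32010 refed and 26758 fasted (0.26). The 2 lower members were dim, Il1r1 with 153.5 refed and 230.9 fasted and Fgb with 105.9, below detection, and 137.4.

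The promoter of Orm2 is shown because it was the only one of 23 acute phase members with a promoter in the RefSeq table (build GRCm38.p6) that held TTGCGCAA, a palindromic C/EBP site, on either strand. Among all 32851 promoters of that table, each running from 250 bases before to 50 after a start, 0.183% held TTGCGCAA. Here and below, a member was counted when any of its promoters held the letters, while shares of all promoters count each promoter singly. A member with several promoters had more chances, so the counts and shares are unlike measures. An NF-kB site was found in 1 of the 23, that of Il1r1, against 8.46% of all promoters, and TTCCNGGAA, a STAT site, in 1, that of Fga, against 1.15%. The Saa3 promoter is shown as that of the highest gene and held none of the 3. Capitals mark the C/EBP site, which starts at -120 from the transcript's start, and a match describes letters only. The Orm2 window is chr4:63362199-63362498 on the plus strand and the Saa3 window chr7:46715627-46715926 on the minus strand. The Orm2 promoter was added after the values were seen.
Orm2: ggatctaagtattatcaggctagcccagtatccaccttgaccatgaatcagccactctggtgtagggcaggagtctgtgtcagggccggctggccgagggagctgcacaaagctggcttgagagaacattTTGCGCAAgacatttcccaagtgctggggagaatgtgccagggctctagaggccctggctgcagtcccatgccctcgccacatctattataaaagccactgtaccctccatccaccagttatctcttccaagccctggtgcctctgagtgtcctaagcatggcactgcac
Saa3: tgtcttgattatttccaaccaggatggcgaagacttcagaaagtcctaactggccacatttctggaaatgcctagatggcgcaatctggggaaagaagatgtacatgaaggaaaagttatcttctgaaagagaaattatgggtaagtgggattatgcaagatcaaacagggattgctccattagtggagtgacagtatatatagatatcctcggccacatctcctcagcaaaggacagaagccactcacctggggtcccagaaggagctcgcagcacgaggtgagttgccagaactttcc

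Several cytokine, NF-kB and STAT feedback genes were also higher. Of 19 compared, 9 were at least 2-fold higher on the refed array and 0 lower, against 12.3% and 11.9% of all genes, and 7 were shown at 2-fold. The median log2 ratio was 0.99, or 0.63 with genes detected on 1 array at their bounds. A further 11 of the 30 with a probe, among them Il6, Tnf, Cxcl2 and Ccl2, were not detected on either array, and over all 30 the median was 0.40. For 4 of the 19 the refed array was at least 2-fold above each of the others. Cxcl1, a chemokine that draws neutrophils, read 7925 refed, 2910 fasted and 801 to 2082 on Dox (1.48). Bcl3, a nuclear cofactor of NF-kB, read 617.4 refed, 272.5 fasted and 166 to 191 on Dox (1.55). In both genes the fasted array too lay above all 4 Dox arrays. Tnfaip3, which shuts off NF-kB signalling, read 243.7 refed and 113.0, below detection, fasted, at least 4.12-fold higher. Cxcl10, an interferon-induced chemokine, read 279.6 refed and 142.7 fasted (1.90). Stat3, the transcription factor downstream of interleukin 6, read 979.6 refed and 366.7 fasted (1.70), and here 602 to 811 on Dox, so the fasted array was the low one. Icam1, an adhesion molecule, had a log2 ratio of 1.50. Of the interferon and MHC list 0 of 18 were higher and 1 lower, with a median of -0.23.

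Neutrophil markers, a check on blood cells in the liver, were detected in part. Of 14 with a probe, 8 were not detected on either array. Among the 6 compared 4 were at least 2-fold higher and 0 lower, against 12.3% and 11.9% of all genes. Over all 14 the median log2 ratio was 0.0244, against 1.93 over the 6. In those 4 genes the refed array was at least 2-fold above each of the others, but 3 of them passed the detection level through the refed array only. S100a8, an abundant protein of neutrophil granulocytes, read 1436 refed, 342.8 fasted and 199 to 320 on Dox (2.43). S100a9, its partner, was at least 3.04-fold higher, Prtn3, a granule protease, at least 2.81-fold, and Retnlg, a neutrophil resistin, at least 2.48-fold. The summed intensity of the 14 markers was 3143 refed and 1807 fasted, against 1690 to 1906 on the Dox arrays. These sums keep the background, about 109 per probe, and S100a8 alone made up most of the gap between refed and fasted. Ngp, another granule protein, read 108.5, below detection, refed and 135.3 fasted. In pooled tissue, more cells of a type and more RNA per cell cannot be told apart. The part of neutrophils in the acute phase and cytokine values was not tested.

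Markers of other cells were summed in the same way, with the background kept. Their counts stand beside 12.3% of all genes higher and 11.9% lower. Hepatocyte markers summed to 191138 refed and 156119 fasted, with a range of 160501 to 190227 on Dox, and 1 of 14 was higher and 1 lower, the lower one with a bound under 2-fold. Alb, the defining gene, has a dim probe here (150.5 refed, 146.6 fasted) and does not report its abundance. Macrophage and Kupffer cell markers summed to 6842 refed and 5861 fasted against 5133 to 6159 on Dox, with 3 of 13 higher, among them C1qc, a complement subunit (1.10), and 1 lower, Marco, and with 2 higher and 0 lower shown at 2-fold. Sinusoidal endothelial markers summed to 9669 refed and 12899 fasted against 6830 to 8436 on Dox, with 1 of 13 higher and 1 lower. The lower one was Dnase1l3, a secreted nuclease, at 324.4 refed and 680.6 fasted (-1.34). Pancreatic genes, which mark pancreas tissue taken with the liver, summed to 14760 refed and 17536 fasted against 17083 to 41165 on Dox, with 1 of 19 higher and 4 lower (0 and 4 shown at 2-fold), and the acinar enzymes Cela2a (434.9 refed, 1367 fasted, -1.90) and Cela1 (730.6 refed, 1988 fasted, -1.57) were both lower. Cela1 read 1490 to 2463 on Dox, so the refed array was the low one. Their part in other values was not tested.

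**Figure D3:**
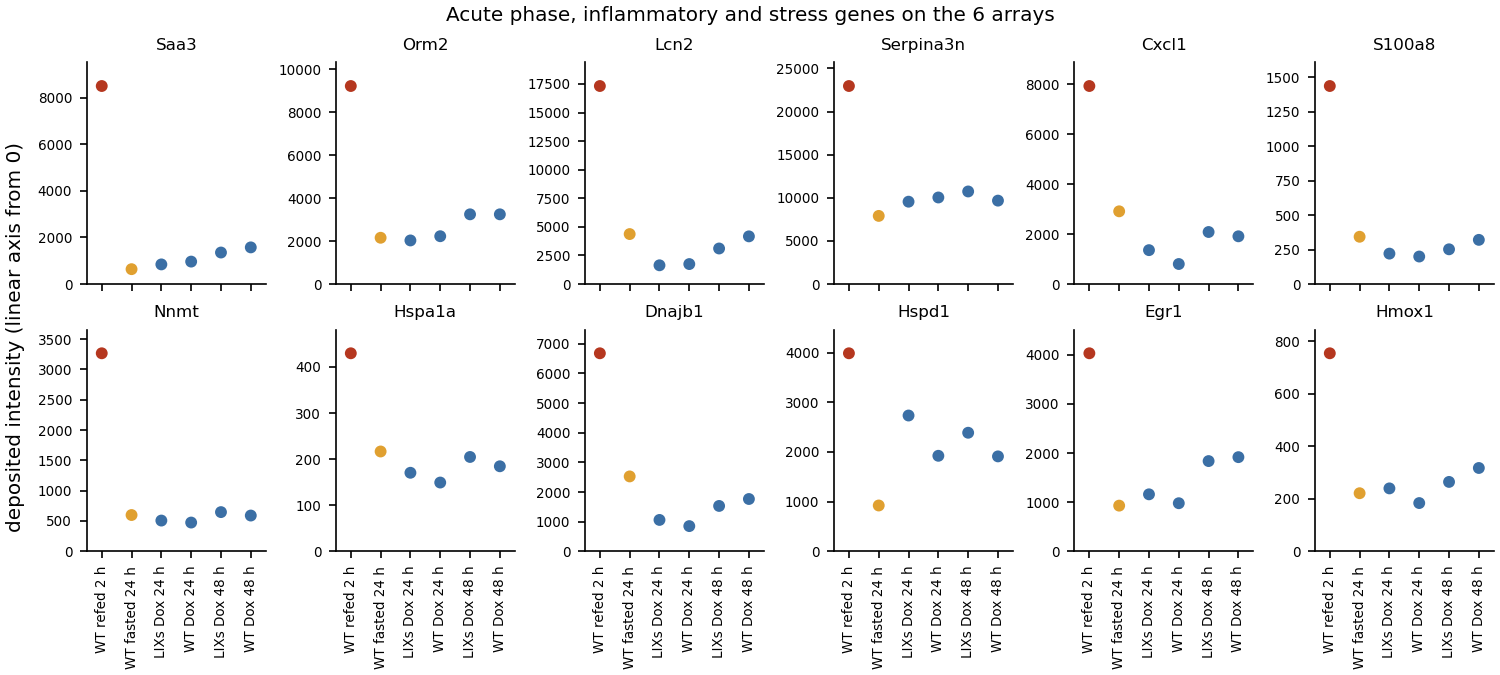
Deposited intensity (linear axes from 0) of 12 acute phase, inflammatory and stress genes on the 6 arrays, 1 point per array: refed (red), fasted (yellow) and the 4 Dox arrays (blue). In every panel the red point is the highest. In the Saa3, Serpina3n, Egr1 and Hspd1 panels the yellow point lies below all others, at 922 for Hspd1.

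Immediate early genes held several that were higher. Of 28 with a probe, 9 were not detected on either array. Of the 19 compared, 9 were at least 2-fold higher on the refed array and 1 lower, all shown at 2-fold, against 12.3% and 11.9% of all genes. The median log2 ratio was 0.97, or 0.52 over all 28, and for 3 the refed array was at least 2-fold above each of the others. Egr1, a zinc finger factor transcribed within minutes of growth factor signals, read 4032 refed, 929.8 fasted and 979 to 1917 on Dox (2.23). Egr2, its relative, read 216.4 refed and 150.6 fasted (1.10), and Dusp6, a phosphatase that shuts off ERK signalling, 1356 refed and 602.6 fasted (1.31). Fos read 249.4 refed and 168.0 fasted (1.06), and Atf3, a stress-induced repressor, 298.2 refed and 172.3 fasted (1.37), where the Dox arrays ranged from 163 to 546. Jun went the other way with 267.1 refed and 336.2 fasted (-0.48). Klf10, a factor induced by TGF-beta, was the lower one, with 129.2, below detection, refed and 236.6 fasted, at least 3.95-fold lower.

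Heat shock genes, which encode cytosolic and mitochondrial chaperones, split within the list. Of 25 compared, 8 were at least 2-fold higher and 1 lower (7 and 1 shown at 2-fold), against 12.3% and 11.9% of all genes. The median log2 ratio was 0.58, or 0.24 over the 31 with a probe. Dnajb1, the HSP40 partner of inducible HSP70, read 6680 refed, 2526 fasted and 850 to 1764 on Dox (1.44), and Hspa1a, inducible HSP70, read 429.7 refed, 216.6 fasted and 149 to 205 on Dox (1.45). These 2 stood at least 2-fold above every other array. Hspa1b, a near-identical copy of Hspa1a whose probe may share signal, was at least 2.31-fold higher, and another Hspa1b probe had a log2 ratio of -0.19. Hspd1, the mitochondrial chaperonin HSP60, read 3987 refed and 922.4 fasted (2.23), yet 1911 to 2734 on Dox, so that the fasted array lay at least 2-fold below every other. Its second probe read 540.6 refed and 364.4 fasted (0.72). Hspb8, a small heat shock protein, read 7681 refed, 2292 fasted and 4496 to 6643 on Dox (1.79), and its second probe 2920 and 2286 on the refed and fasted arrays (0.37). Bag3, Hspe1, Chordc1 and Stip1 differed little, with log2 ratios of -0.03, 0.22, -0.02 and 0.05.

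Promoters of 3 of the higher heat shock genes are shown because the heat shock factor binds repeats of the letters in capitals. GAANNTTC, searched on both strands, stood in any promoter of 11 of 22 heat shock members with a RefSeq promoter (GRCm38.p6). It did so for 4 of the 7 that were at least 2-fold higher, and 7.86% of all promoters, counted singly, held it. TTCNNGAA, which can overlap GAANNTTC, stood in any promoter of 4 of the 22 and of 1 of those 7, and in 8.52% of all promoters counted singly. Members with several promoters had more chances, so these shares are unlike measures. The second Hspd1 promoter held 3 overlapping sites, TTCCGGAA at -144, GAAGGTTC at -139 and TTCTAGAA at -134 from the start, while the first held none. Hspa1a had GAAGATTC at -104, and Hspb8 had GAAGTTTC at 3, just past the start. The windows are chr1:55087883-55088182 for Hspd1, chr17:34972107-34972406 for Hspa1a and chr5:116422815-116423114 for Hspb8, all on the minus strand. Hspa1a and Hspb8 were added after the values were seen. Bag3 and Hspe1 also held GAANNTTC, so the letters were present in members with and without a difference.
Hspd1: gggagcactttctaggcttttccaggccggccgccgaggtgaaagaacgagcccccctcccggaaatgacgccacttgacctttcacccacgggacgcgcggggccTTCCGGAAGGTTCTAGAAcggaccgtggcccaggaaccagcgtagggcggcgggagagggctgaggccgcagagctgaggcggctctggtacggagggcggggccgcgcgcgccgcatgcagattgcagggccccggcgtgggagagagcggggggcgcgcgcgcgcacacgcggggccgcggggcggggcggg
Hspa1a: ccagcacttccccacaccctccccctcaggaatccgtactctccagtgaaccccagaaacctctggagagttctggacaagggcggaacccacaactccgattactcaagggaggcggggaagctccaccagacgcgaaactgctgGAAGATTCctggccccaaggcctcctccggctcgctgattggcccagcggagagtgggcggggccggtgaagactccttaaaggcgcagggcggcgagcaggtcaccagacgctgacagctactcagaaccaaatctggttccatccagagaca
Hspb8: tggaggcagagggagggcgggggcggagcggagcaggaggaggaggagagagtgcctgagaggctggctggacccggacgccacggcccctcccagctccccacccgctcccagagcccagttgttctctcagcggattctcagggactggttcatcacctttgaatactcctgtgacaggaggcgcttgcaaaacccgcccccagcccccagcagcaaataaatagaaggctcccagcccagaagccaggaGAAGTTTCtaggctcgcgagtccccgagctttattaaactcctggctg

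Hmox1, heme oxygenase, was the highest gene of the oxidative stress list, with 754.9 refed, 221.4 fasted and 184 to 318 on Dox (2.37). Of that list's 18 genes 3 were higher (16.7%) and 1 lower (5.56%), against 12.3% and 11.9% of all genes, with a median of 0.19. Sod2, the mitochondrial superoxide dismutase, read 4613 refed and 1774 fasted (1.43) but 3987 to 5430 on Dox, so the low array was the fasted one. Gsta2, a glutathione transferase, was lower with 133.3 refed and 200.8 fasted. Nnmt, which methylates nicotinamide, had the widest gap to all other arrays of any gene detected on both: 3267 refed, 598.3 fasted and 474 to 647 on Dox (2.65), and its second probe had a log2 ratio of 1.75. Gadd45b, a stress and growth arrest gene, read 230.4 refed and 129.4 fasted (1.91), with 117 to 126 on Dox. Its second probe (1.23) was detected on the refed array only, with 144.8 refed and 108.9 fasted. Prepl, an endopeptidase-like protein, read 969.1 refed and 332.6 fasted (1.87), and Mfsd2a, a carrier of lysolipids, 1428 refed and 486.3 fasted (1.76), both above all Dox arrays.

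Fatty acid oxidation and ketogenesis genes were higher on the array labelled refed or did not reach 2-fold. Of 33 compared, 10 were at least 2-fold higher and 0 lower (9 and 0 shown at 2-fold), against 12.3% and 11.9% of all genes. The median log2 ratio was 0.41, or 0.36 over the 38 with a probe. Crat, which moves acetyl groups as carnitine esters, was at least 3.59-fold higher. Ehhadh, the peroxisomal bifunctional enzyme, read 405.4 refed, 189.6 fasted and 201 to 288 on Dox (1.69). Cyp4a14, a fatty acid hydroxylase induced through PPAR-alpha, read 13635 refed, 6574 fasted and 1652 to 4400 on Dox (1.06). Both arrays exceeded all 4 Dox arrays. Angptl4, an inhibitor of lipoprotein lipase, read 2454 refed and 1031 fasted (1.33), and Plin2, a lipid droplet coat, 540.7 refed and 282.8 fasted (1.24). For both, the Dox arrays lay around the refed value, at 1517 to 3071 for Angptl4 and 533 to 837 for Plin2. Decr1, an auxiliary enzyme of unsaturated fatty acid oxidation, read 565.9 refed and 948.8 fasted (-0.86).

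Some gluconeogenesis and insulin-repressed genes were higher as well, against 12.3% of all genes. Of 12 gluconeogenesis genes 3 were higher and 0 lower (2 and 0 shown at 2-fold, median 0.74, or 0.67 over the 14 with a probe). Of 21 insulin signalling and FOXO1 target genes 6 were higher and 0 lower (5 and 0 shown at 2-fold, median 0.45, or 0.38 over the 26 with a probe), and 6 had a ratio below 0, among them Igf1 (-0.68) and Egfr (-0.51). The summed intensity of that list was 28953 refed and 33593 fasted. Besides Igfbp1 and Sik1, Slc37a4, the glucose 6-phosphate carrier of the endoplasmic reticulum (ER), read 277.0 refed and 137.0 fasted (2.06), and 208 to 347 on Dox. Depp1, a FOXO target, read 758.9 refed and 326.1 fasted (1.51), with 367 to 950 on Dox. Pcx, pyruvate carboxylase, had a log2 ratio of 0.93 but the opposite sign on its other detected probe, Foxo1 had 0.73 and Gcgr, the glucagon receptor, 0.88. GTAAACA, a FOXO site, stood in any promoter of 2 of 17 members of the insulin and FOXO1 list with a promoter. These were Sesn1 and Txnip, and neither gene reached 2-fold. Of all promoters, counted singly and so an unlike measure, 3.65% held it. TGACGTCA, the cAMP response element, stood in the promoters of 0 of 10 gluconeogenesis members with a promoter, and in 1.79% of all promoters counted singly.

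In glycogen metabolism 2 of 9 genes were higher and 0 lower (median 0.49), against 12.3% and 11.9% of all genes. Ppp1r3g, a subunit that targets protein phosphatase 1 to glycogen, read 442.1 refed, 174.5 fasted and 174 to 235 on Dox (2.10), at least 2-fold above every other array, but its second probe had a log2 ratio of -0.37. Gys2, liver glycogen synthase, read 299.2 refed and 194.0 fasted (1.03), and its second probe 0.05. For these 2 genes the probes therefore disagreed in direction or size. In glycolysis 3 of 13 were higher and 0 lower (2 and 0 shown at 2-fold, median -0.12). Slc2a2, the glucose transporter GLUT2, read 276.3 refed and 138.4 fasted (2.01). Its other probes gave -0.66 and 1.99, the latter detected on the refed array only. Pgk1, phosphoglycerate kinase, read 1462 refed and 683.2 fasted (1.21), with 1604 to 1654 on Dox. For the brightest probe of Slc2a2 and for Pgk1, the fasted array was the low one of 6.

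**Figure D4:**
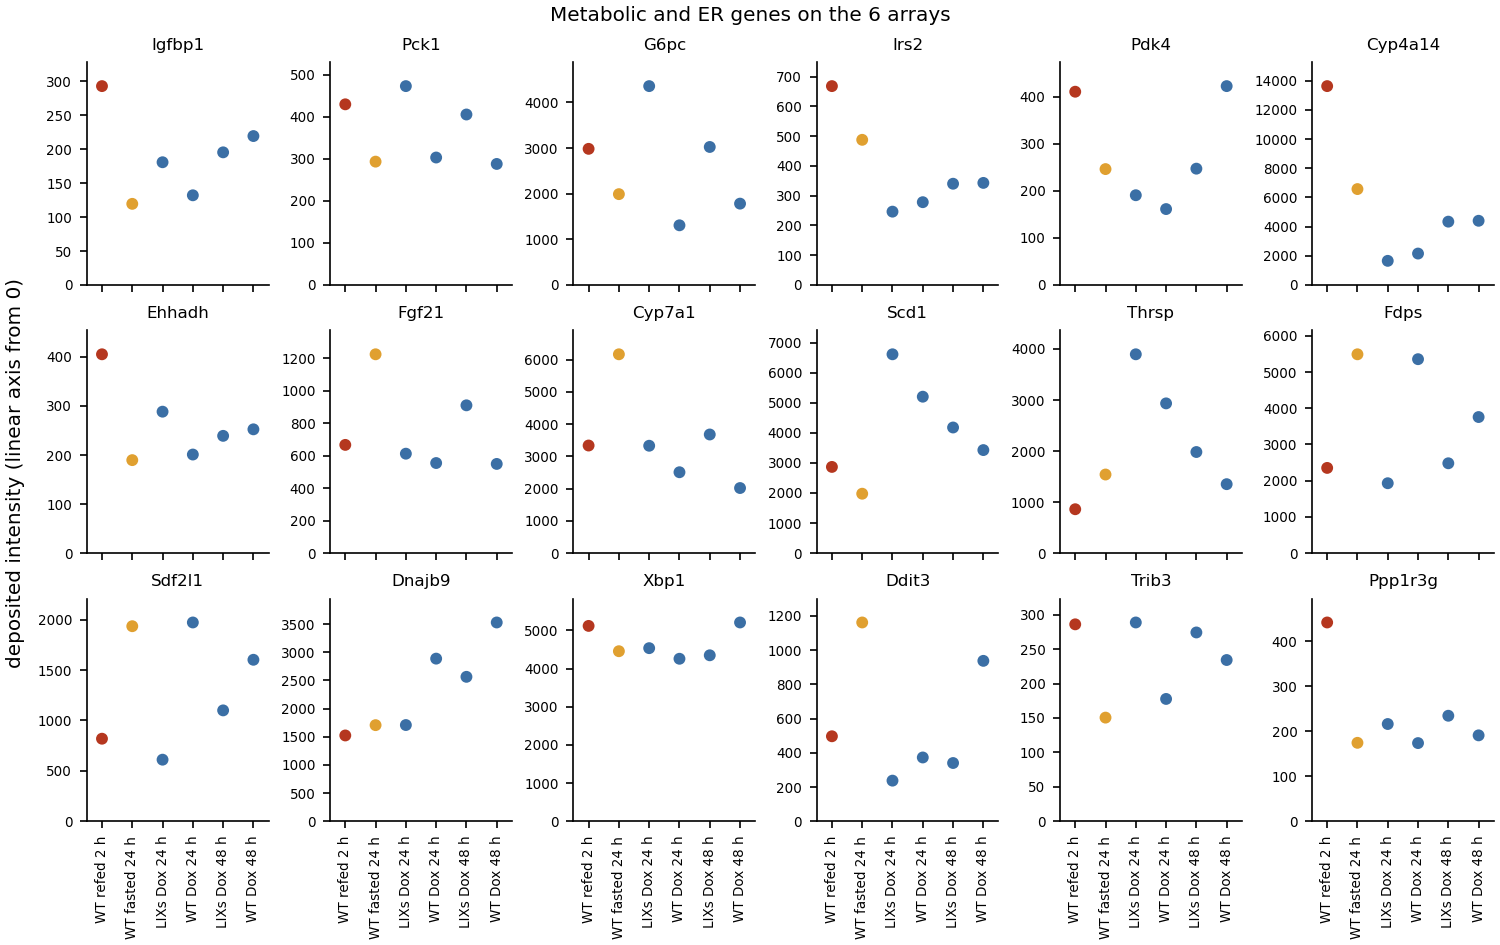
Deposited intensity (linear axes from 0) of 18 metabolic and ER genes on the 6 arrays, 1 point per array: refed (red), fasted (yellow) and the 4 Dox arrays (blue). Igfbp1, Cyp4a14, Ehhadh and Ppp1r3g are highest on the refed array, Fgf21, Cyp7a1 and Ddit3 on the fasted array, and Xbp1 lies between 4259 and 5210 on all 6.

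Lipogenic genes, which feeding induces through insulin, showed no higher member. Of 19 compared 0 were at least 2-fold higher, against 12.3% of all genes, and 2 lower (10.5%, near the 11.9% of all genes). Shown at 2-fold were 0 and 1, and the median log2 ratio was -0.04. The lower genes were Mid1ip1, a cofactor of acetyl-CoA carboxylase (216.5 refed, 367.6 fasted, -1.15), and Gpam, which starts triglyceride synthesis (119.2, below detection, refed and 148.9 fasted). Thrsp, a lipogenic nuclear protein, read 859.9 refed and 1540 fasted (-0.92), and on Dox 1351 to 3896, so the refed array was the lowest. Scd1, the stearoyl-CoA desaturase, read 2866 refed and 1975 fasted (0.56), and Acly, ATP citrate lyase, 1587 refed and 2238 fasted (-0.52). Angptl8, a hormone induced by feeding and outside the lists, read 373.6 refed and 882.9 fasted (-1.49) and was chosen after its values were seen.

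Sterol synthesis was mixed, with 2 of 17 higher (11.8%) and 3 lower (17.6%), against 12.3% and 11.9% of all genes. Shown at 2-fold were 1 and 3, and the median was 0.12. Mvd, mevalonate diphosphate decarboxylase, was the lowest gene detected on both arrays, with 162.0 refed and 435.2 fasted (-2.31). Since it read 129 to 165 on Dox, the fasted array stood alone. Fdps, farnesyl diphosphate synthase, read 2353 refed and 5491 fasted (-1.26), and its second probe -2.38, with 1930 to 5356 on Dox. Hsd17b7, which reduces a sterol ketone, read 1920 refed and 921.1 fasted (1.14) and 563 to 976 on Dox, so here the refed array was the high one. Bile acid and sterol export genes had 2 of 17 higher (11.8%, near the share of all genes) and 0 lower (1 and 0 shown at 2-fold, median 0.14). Abcc3, a basolateral bile acid exporter, read 894.3 refed and 408.3 fasted (1.35).

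Amino acid catabolism had 5 of 31 higher (16.1%, near the 12.3% of all genes) and 0 lower, against 11.9% of all genes (median 0.35). Hal, which deaminates histidine, read 379.2 refed and 220.1 fasted (1.17), with 1.42 on its second probe. Glucocorticoid-responsive genes had 4 of 12 higher and 0 lower (median 0.36). Gadd45g, a growth arrest gene, read 6544 refed, 2069 fasted and 1867 to 4376 on Dox (1.71). Tsc22d3, the leucine zipper GILZ, read 1116 refed and 456.9 fasted (1.49). Its 2 other probes gave -0.08 and 0.56, the latter detected on the refed array only. Fkbp5, the classical target, read 640.8 refed and 644.2 fasted (-0.01). Clock genes had 1 of 14 higher, Per1, with 348.7 refed and 207.2 fasted (1.16) and 0.09 on its second probe, and 1 lower, Nr1d1, with 117.5, below detection, refed and 147.0 fasted, a bound of 1.49-fold.

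Few protein folding genes of the ER were higher. The share lower was near that of all genes (11.9%) for chaperones and trafficking. The share higher was near that of all genes (12.3%) for trafficking only. Of 21 ER chaperones and folding enzymes 0 were higher and 3 lower (14.3%, 2 shown at 2-fold, median -0.17), of 20 N-glycosylation genes 0 were higher and 4 lower (20.0%, median -0.23), and of 28 trafficking genes 3 were higher and 3 lower (10.7% each, median -0.27). Sdf2l1, an ER stress-induced partner of BiP, read 819.1 refed and 1935 fasted (-1.34), and 611 to 1972 on Dox. Calr, the lectin chaperone calreticulin, read 1189 refed and 2775 fasted (-1.29), and 796 to 1492 on Dox, so the fasted array was the high one. Ostc, an oligosaccharyltransferase subunit, read 3024 refed and 7908 fasted (-1.42), the fasted array again above all Dox arrays at 2934 to 5875. Hspa5, the chaperone BiP, read 181.3 and 180.1 on the refed and fasted arrays from a dim probe, and Xbp1, the stress factor itself, 5120 and 4457 (0.20). Dnajb9, an Xbp1 target, read 1524 refed and 1707 fasted (-0.17), both below the 4 Dox arrays, which began at 1709. Of 19 ER chaperone members with a promoter, 17 held CCACG, a part of the ER stress element, in any of their promoters. TGACGTGG, a binding site of XBP1 and ATF6, was held by 2. Of all promoters, counted singly and so an unlike measure, 32.8% and 0.676% held them.

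Genes of the PERK, ATF4 and CHOP branch split, with 2 of 14 higher (14.3%) and 3 lower (21.4%), against 12.3% and 11.9% of all genes (median 0.05). Ddit3, which encodes CHOP, read 496.9 refed and 1162 fasted (-1.40), and its second probe -1.02, with 238 to 938 on Dox. Mthfd2, a mitochondrial folate enzyme, read 145.3 refed and 235.9 fasted (-1.45). Trib3, an inhibitor of AKT and target of CHOP, read 285.9 refed and 150.5 fasted (1.74), opposite to Ddit3. On Dox it read 178 to 289, so the fasted array was the low one. Asns, asparagine synthetase, was at least 2.21-fold higher, with 173.9 refed and 126.6, below detection, fasted. Both values lay below the Dox arrays at 212 to 296. Of 17 aminoacyl-tRNA synthetases 1 was higher and 2 lower (median -0.28). Hars read 149.7 refed and 263.9 fasted (-1.59), and Gars 2324 refed and 4639 fasted (-1.03), each at least 2-fold higher on the fasted array than on every other.

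**Figure D5:**
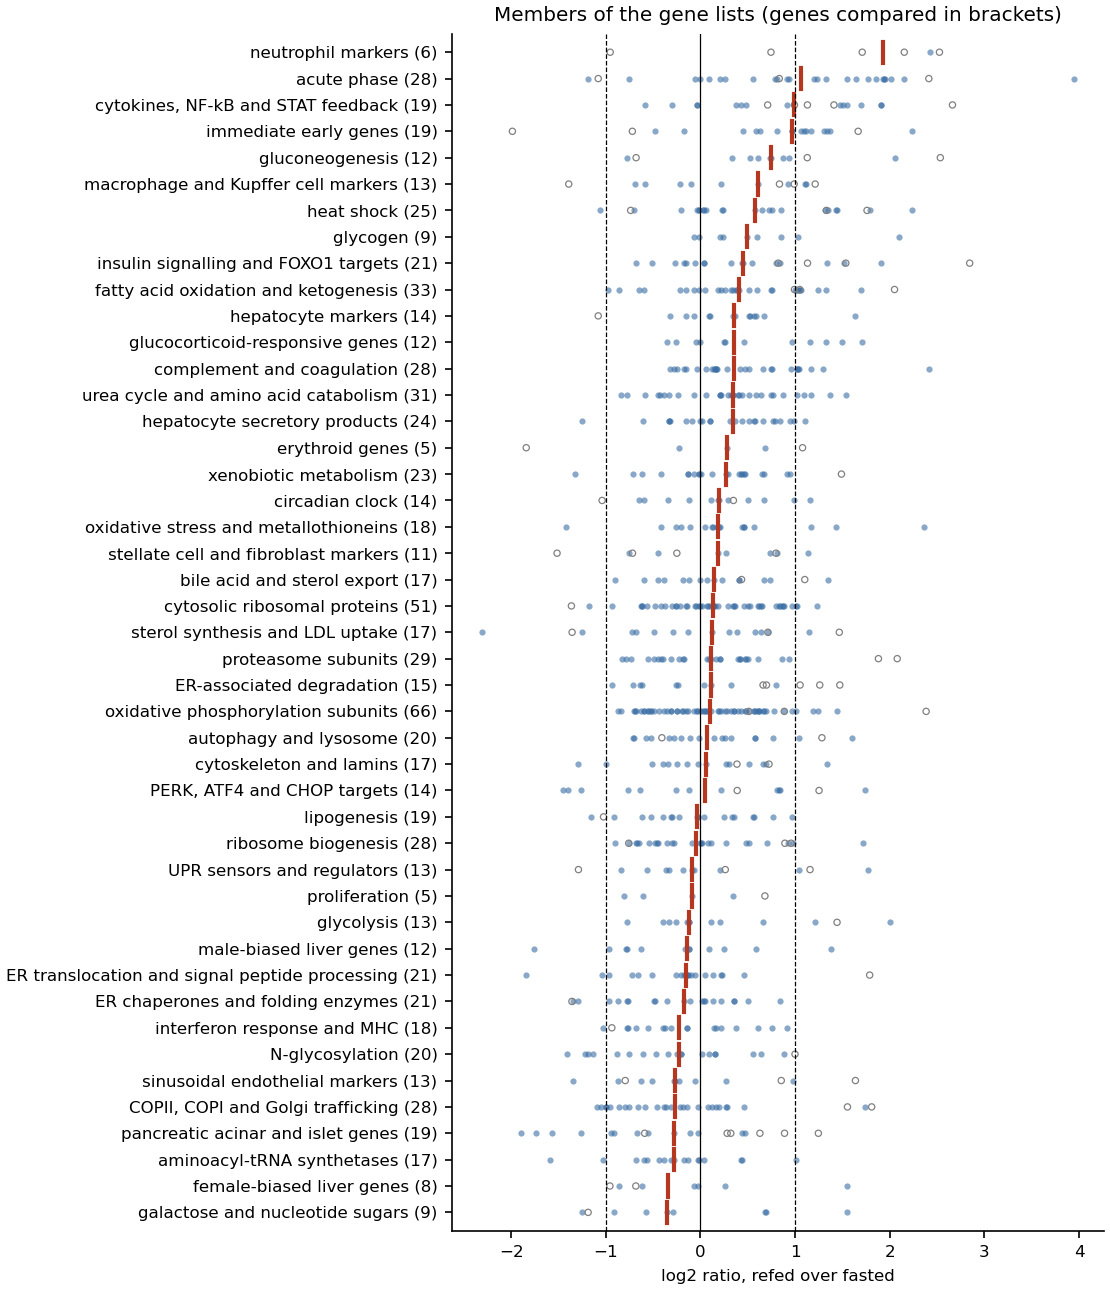
Log2 ratio of refed over fasted (horizontal axis) for the members of each gene list with at least 5 genes compared, filled where detected on both arrays and open where detected on 1, with the median as a red bar and dashed lines at 2-fold. Neutrophil, acute phase, cytokine and immediate early lists lie highest among the genes compared, with medians of 1.93, 1.06, 0.99 and 0.97 (0.0244, 0.91, 0.40 and 0.52 over all members with a probe), against -0.09 over all genes.

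Among complement and coagulation genes 7 of 28 were higher (25.0%) and 0 lower, against 12.3% and 11.9% of all genes (median 0.35). In 4 of these 28 the fasted array was at least 2-fold below every other. C8a, a subunit of the membrane attack complex, read 1047 refed and 272.1 fasted (2.41), and 791 to 1265 on Dox. Its partners C8b and C8g did not follow, with log2 ratios of -0.32 and -0.03. C6 read 1472 refed and 708.4 fasted (1.16), with 830 to 916 on Dox, and its second probe had 0.65. Housekeeping groups had few calls: 3 of 51 cytosolic ribosomal protein genes were higher and 2 lower (median 0.13), 2 of 29 proteasome genes were higher and 0 lower (0.12), and 5 of 66 oxidative phosphorylation genes were higher and 0 lower (0.10). In all 5 of the last group the array labelled fasted was at least 2-fold below every other.

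The other genes at the ends of the ranking were mostly those in which the fasted array stood alone. On the higher side, Selenok, a selenoprotein of the ER membrane, read 310.3 refed and 141.0 fasted (2.17), and 379 to 602 on Dox. Hfe, an iron regulator, read 295.8 refed and 129.5 fasted (2.47), while its second probe had -0.88. Irf2bp2, a transcriptional corepressor, read 335.3 refed and 137.3 fasted (2.44). Its second probe (1.73) was detected on the refed array only, with 158.3 refed and 99.65 fasted. Cpn2, a carboxypeptidase subunit, had 2.33 on its brightest probe and 0.42 on its second. On the lower side, Wdr13, a WD repeat protein, read 247.3 refed and 692.0 fasted (-1.96), and 178 to 224 on Dox. Stat6, the factor of interleukin 4 signalling, read 133.1 refed and 260.9 fasted (-2.07), and Tspan33, a tetraspanin, 134.5 refed and 290.5 fasted (-2.25). Arfip2 read 224.7 refed and 558.6 fasted (-1.82), with 1.09 on its second probe, which was detected on the refed array only.

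Beyond Igfbp1, the highest bounds belonged to 2010003K11Rik at 11.7-fold (519.0 refed and 125.9 fasted), Serpina7, the thyroxine-binding globulin, at 8.14-fold, Slc16a5, a monocarboxylate transporter, at 6.78-fold and Pafah1b1, a dynein regulator, at 6.05-fold. Ngef, a guanine nucleotide exchange factor, had a bound of 5.23-fold and -0.47 on its second probe. In the first 3 the Dox arrays lay between the 2 values, and Pafah1b1 read 270 to 362 on Dox against 314.1 refed. The lowest bounds were those of Slc25a36, a mitochondrial pyrimidine carrier, at 4.73-fold lower (105.1 refed and 265.1 fasted), Trp53rka at 4.51, Dkkl1 at 4.32, Pyurf at 4.13 and Cacna1a, a calcium channel subunit, at 4.03. All 5 read at most 144.6 on the Dox arrays, so that the fasted array alone lay above detection by a wide margin.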

How the data were processed

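The authors deposited a table of linear intensity for 45281 probes of an Illumina bead array, 1 column per pooled liver RNA sample. Per the submitters' processing notes the software was GenomeStudio, whose settings the sources used here do not give. The deposited intensities ran from 81.1 to 50652. On the log2 scale the sorted values of every array differed by at most 0.0199 from those of LIXs at 24 h, so the deposited values were treated as already normalized and not background-subtracted. A table with 6 unnormalized signal columns stayed out, since no column name fits a sample. Control probes and detection p-values, which the design had assumed, were replaced by a background estimate from the deposited intensities.

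The most frequent log2 intensity (109 when linear) and the spread below it (SD 7.66) entered the normexp model of limma 3.58.1 in R 4.3.3, then an offset of 16, quantile normalization and log2. The detection level of 129 is exceeded by a share of 0.01 of that background when mirrored about its mode. Of the probes, 34885 had 1 gene name, 18 several and 10378 none, and 34807 of the named ones matched the reference table. A gene detected on 1 array has a lower bound, its bright signal divided by the larger of 2 dim-array values, the lowest detected signal or its own. Such bounds depend on the background step and the offset. Igfbp1, with a bound of 5.47-fold, had a log2 ratio of 1.29 with no background step. Each array stands for 1 pool, so neither a test nor a left-out replicate was possible.

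The 49 gene lists hold 1167 genes, 1088 with a probe. The genes compared, the lists and the rules were chosen with earlier results of these data known. The naming rule covered the 15 highest and 15 lowest genes detected on both arrays and the 6 highest and lowest bounds. It also covered up to 4 genes per direction of each list and a set of textbook genes. Not every gene under the rule appears in the text, and several from both ends of the ranking are left out. Other genes named were chosen after their values were seen. Alternatives changed the background step, offset, quantile step, detection level, dim-probe filter and probe per gene.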

Additional observations from a re-analysis of the deposited data

How the results depend on the processing

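No paired analysis was possible because each group has 1 array, and no replicate could be left out. The counts of 1089 genes at least 2-fold higher and 1053 lower on the refed array, and of 304 different between the WT Dox arrays, were 183, 72 and 56 with no background step, 424, 278 and 121 with an offset of 50, and 466, 358 and 202 among genes detected on both arrays of a pair. Among alternatives chosen after seeing the data, 190 higher and 80 lower genes had 2 or more detected probes all in 1 direction, and 57 and 7 were at least 2-fold beyond each of the other 5 arrays. The other alternatives kept these counts within 1.5 times. Of the list medians, that of neutrophil markers (1.93) was 0.75 with no background step, 1.13 with the offset of 50 and 0.0244 with no filter on dim probes. The cytokine list (0.99) had 0.36 with no background step and 0.40 with no filter. The adipocyte markers (0.36, only 3 genes compared) had -0.69 with the stricter detection level and among genes detected on both arrays. The muscle genes (-0.83, only 2 genes compared) had 0.16 with the more permissive level and 0.10 with no filter. With the stricter level they had -1.45, the value of Myh4. Medians of so few genes change with the members that pass the filter. The cause of the other shifts was not tested. Of 176 genes under the naming rule past 2-fold, 79 stayed past it with no background step, 124 with the offset of 50 and 158 with the mean over probes. Rpl30 turned from -1.18 to 0.10 under that mean. The median of all genes lay between -0.09 and -0.05 under each scaling.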

Other observations

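Secretory genes of hepatocytes outside the acute phase list differed little between the array labelled refed and the one labelled fasted. Of 24, 1 was at least 2-fold higher and 1 lower (4.17% each), against 12.3% and 11.9% of all genes. The median log2 ratio was 0.34. Serpina6, the corticosteroid-binding globulin, read 1134 refed and 2577 fasted (-1.25), close to the span of 1142 to 2513 on the Dox arrays. Serpina1c, an alpha-1 antitrypsin, read 5379 refed and 2555 fasted (1.10), with 5849 to 8287 on Dox, so the fasted array was the low one. In xenobiotic metabolism 1 of 23 was higher and 1 lower (0 and 1 shown at 2-fold by detection on both arrays or a bound, median 0.27), and Cyp3a11, the main mouse CYP3A enzyme, read 1662 refed and 4039 fasted (-1.33), where the Dox arrays read 2642 to 8675. Of 9 galactose and nucleotide sugar genes 1 was higher, the sialic acid gene Gne (646.5 refed, 282.7 fasted, 1.54, but -0.10 on its second probe), and 2 were lower, 1 of them shown at 2-fold (median -0.35). Of 8 female-biased liver genes 1 was higher, Cyp17a1, a steroid hydroxylase, with 331.9 refed, 174.6 fasted and 159 to 173 on Dox (1.55). Of 12 male-biased genes 1 was higher and 1, Moxd1, lower with 172.0 refed and 360.8 fasted (-1.76).

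Of 13 sensors and regulators of the unfolded protein response 3 were higher (23.1%) and 1 lower (7.69%), against 12.3% and 11.9% of all genes. Shown at 2-fold were 2 and 0, and the median was -0.09. Ppp1r15b, which restores translation by dephosphorylating eIF2-alpha, read 217.7 refed and 129.4 fasted (1.77), and Creb3l3, a liver factor activated by fasting and ER stress, 890.5 refed and 480.0 fasted (1.04). Among 15 genes of ER-associated degradation 3 were higher and 0 lower (1 and 0 shown at 2-fold, median 0.11), all 3 detected on the refed array only, while among 21 of ER translocation 1 was higher and 2 lower (-0.15), with Srp19, a signal recognition particle subunit, at 131.9 refed, 232.4 fasted and 184 to 291 on Dox (-1.84). In autophagy and lysosome genes 3 of 20 were higher and 0 lower (2 and 0 shown at 2-fold, median 0.07). Map1lc3b, the LC3 protein of autophagosomes, read 232.1 refed and 138.7 fasted (1.60), and Ctsb, a lysosomal protease, 4358 refed and 2169 fasted (1.04), both with the refed array near or inside the Dox range of 236 to 328 and 4114 to 7113. In the cytoskeleton list Krt8, a keratin of hepatocytes, read 1307 refed and 572.1 fasted (1.34) and Tubb5, a tubulin, 3099 refed and 7455 fasted (-1.29). Ribosome biogenesis had 1 of 28 higher and 0 lower, and 0 of 5 proliferation genes reached 2-fold in either direction.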
